A study of Mus musculus with 27 samples.

Results

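The hypoxia-high and hypoxia-low tumour regions were 18 of the 27 desmin-negative segments profiled in MC38 liver metastases, 9 at each end of a hypoxia score. The score of a region was the mean log2 level of 6 genes, Vegfa, Adm, Bnip3, Ndrg1, Egln3 and Ankrd37, after subtraction of the mean score of the region's label group. The 9 regions with the highest scores were called hypoxia-high, the 9 with the lowest were called hypoxia-low, and the 9 in between were left out of the comparison. Every other target was then compared between the ends after it had been centred in the same way within its label group. MC38 is a mouse colon carcinoma line, and the metastases grew in the livers of C57BL/6 mice, 2 months old, after injection of the cells into the portal vein. The cells carried either a nontargeting shRNA (14 control regions) or an shRNA against CMTM6, a membrane protein that keeps PD-L1 at the cell surface (13 regions). Regions were picked on sections stained for pan-cytokeratin, desmin and DNA, and the RNA probes of the GeoMx Mouse Whole Transcriptome Atlas were counted in the part of each region outside the desmin stain. The Cmtm6 probe overlapped widely between the labels (417 to 722 against 511 to 701 in control regions), so the second group is called knockdown-labelled. The labels do not say which mouse a region came from, and there were fewer mice than regions, so regions share animals and every p-value given here is too small.

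Cells short of oxygen stop destroying the alpha subunits of the hypoxia-inducible factors, because the prolyl hydroxylases that mark these subunits for removal need oxygen as a substrate. The stabilized factors pair with Arnt and bind a short core motif in the promoters and enhancers of their target genes. The known targets raise glucose uptake, glycolysis and lactate export, divert pyruvate from the mitochondria, prepare collagen for secretion, remodel mitochondria and call in blood vessels. In solid tumours such cells usually lie away from perfused vessels and next to dying tissue.

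The hypoxia-high group held 5 control and 4 knockdown-labelled regions, and the hypoxia-low group held 8 control regions and 1 knockdown-labelled region. The scores ran from 1.22 in control region 6 and 0.96 in control region 7 down to -0.44 in control region 5. The third highest score was 0.34, in control region 3. At the upper threshold, control region 10 had a score of 0.0842 and knockdown-labelled region 13, just outside, had 0.0443. At the lower threshold, knockdown-labelled region 5 had a score of -0.166 and knockdown-labelled region 8, just outside, had -0.158. The score had an SD of 0.53 over the 14 control regions and 0.13 over the 13 knockdown-labelled regions, and 13 of the 18 regions compared were control regions. Before the label mean was subtracted, the score was 8.76, 8.62, 8.60 and 8.56 in hypoxia-high knockdown-labelled regions 10, 4, 2 and 12. It ran from 8.51 to 8.68 in the hypoxia-low control regions. Hypoxia-high in these knockdown-labelled regions therefore means high within their own label.

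**Figure D1:**
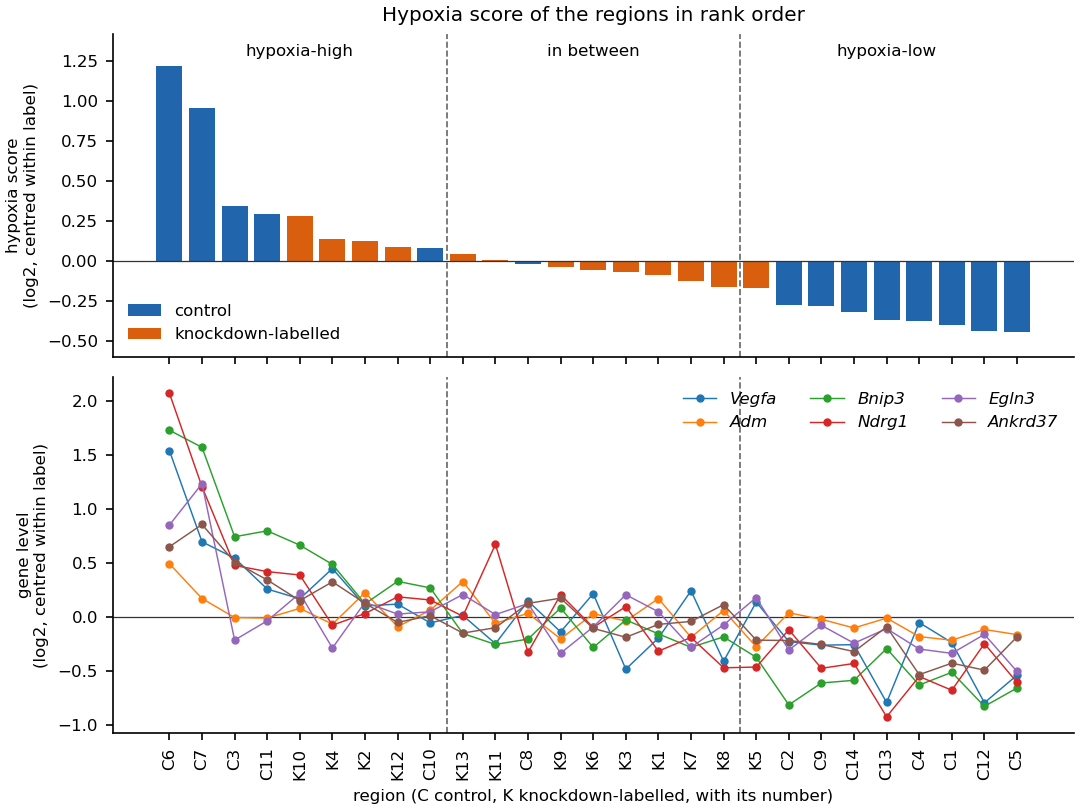
The upper panel shows the hypoxia score (log2, centred within label) of the 27 regions in rank order, with control regions in blue and knockdown-labelled regions in orange, and the lower panel shows the 6 genes that make up the score on the same scale. Dashed lines bound the 9 hypoxia-high and the 9 hypoxia-low regions, and control regions 6 and 7 stand at 1.22 and 0.96, above the next region at 0.34.

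The score genes chose the regions, so their values are a description and were not tested. Bnip3, a mitochondrial outer membrane protein of mitophagy, differed most between the ends, by 1.33 on the log2 scale. On the common-median scale, where the deposited signal of every region is set to the same median over all targets, Bnip3 stood at 2996, 2685, 1514, 1573 and 1091 in control regions 6, 7, 3, 11 and 10. The 8 control regions of the hypoxia-low group had Bnip3 levels of 511 to 740. The hypoxia-high knockdown-labelled regions 10, 4, 2 and 12 had 910, 805, 625 and 722, and the hypoxia-low region 5 had 443. Within each label the ends did not overlap for Bnip3, but its levels in hypoxia-high knockdown-labelled regions lay close to or inside the range of hypoxia-low control regions. Ndrg1 and Ankrd37 did not overlap within either label. Vegfa, Adm and Egln3 overlapped within the control label, and Vegfa and Egln3 also within the knockdown label. Vegfa stood at 624 in hypoxia-low region 5, against 609 and 616 in hypoxia-high knockdown-labelled regions 2 and 12. Hypoxia-high knockdown-labelled region 4 was below its label mean for Adm, Ndrg1 and Egln3 and above it for the other score genes. Ndrg1, a stress-induced cytoplasmic protein, differed by 1.04, Vegfa, the main growth factor of blood vessels, by 0.76, and Ankrd37, an ankyrin repeat protein, by 0.63. Egln3, a prolyl hydroxylase of the pathway, differed by 0.42 and Adm, the vessel-dilating peptide adrenomedullin, by 0.21. Adm was the only score gene below the background limit of 7.63 on the log2 scale, which 95% of 1125 odorant, pheromone, taste and trace amine receptor genes fell under, with a mean of 7.46. Over the 27 regions the 15 pairs of score genes had label-centred correlations of 0.50 to 0.91 (median 0.71), values that share the scaling of each region.

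Outside the score genes, 43 of 19609 targets were higher in hypoxia-high regions (0.219%) and 2 were lower (0.0102%) by limma with Benjamini-Hochberg adjustment at 0.05. At an unadjusted p of 0.05 the counts were 1170 higher (5.97%) and 687 lower (3.5%). Of the 43, 40 were above background, where 10794 targets were tested (0.371%). The label-centred values of the ends did not overlap for 26 targets that were higher (0.133%) and for 0 that were lower. The 43 held enzymes of nearly every step of glycolysis and the glucose and lactate carriers. They also held catalytic subunits of collagen prolyl hydroxylase and a set of mitochondrial proteins. All 43 were also higher in hypoxia-high regions within the control label and within the knockdown label taken alone. The same regions gave the calls, so this is no independent support. The knockdown label had 4 hypoxia-high regions against 1 hypoxia-low region. The count was 28 without control region 7, 72 without control region 11, 69 without knockdown-labelled region 12, and between 29 and 58 without each of the other regions. Control regions 6 and 7 carried much of the size of the differences. Without both, 18 targets were higher and 0 lower, 17 of the 43 were still called, and the median log2 difference of the 43 went from 0.56 to 0.38 with all 43 still positive.

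**Figure D2:**
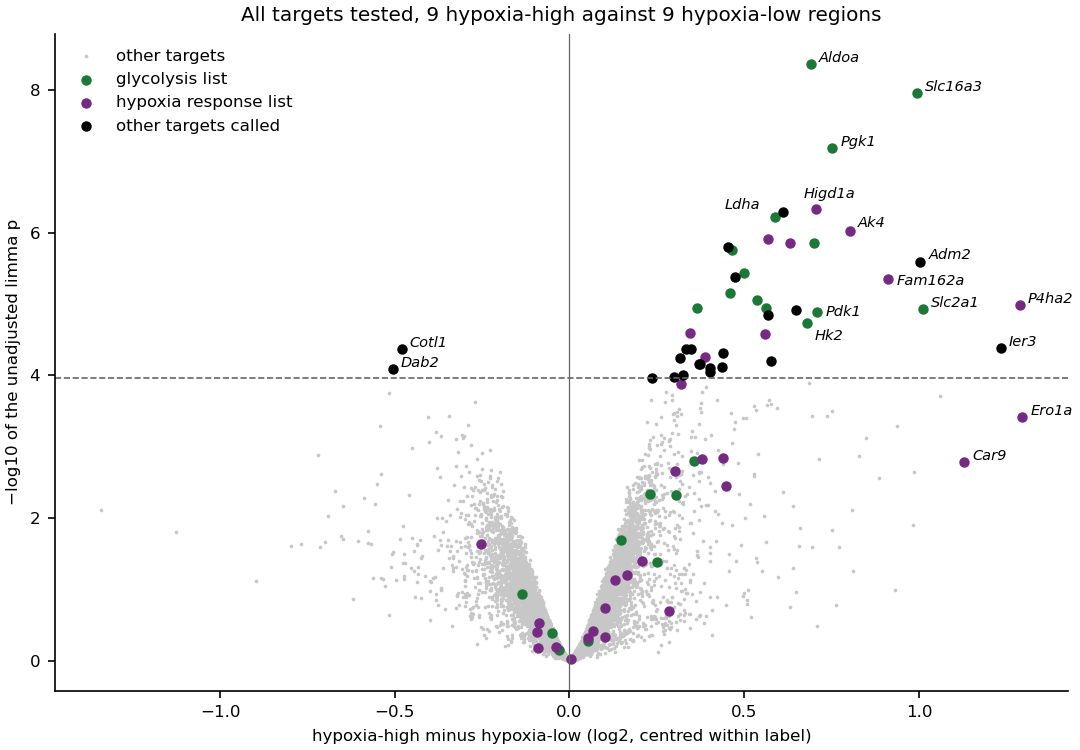
Each point is 1 of 19609 targets, with the hypoxia-high minus hypoxia-low difference (log2, centred within label) on the horizontal axis and −log10 of the unadjusted limma p on the vertical axis; the dashed line marks an adjusted p of 0.05. Glycolysis genes (green) and hypoxia response genes (purple) make up most of the 43 called targets on the right, and Cotl1 and Dab2 are the 2 called on the left.

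The glycolysis list had the most calls. Of its 23 measured members 14 rose and 0 fell, with a median log2 difference of 0.46 beside 0.01 over all targets. Slc16a3, the carrier that exports lactate, rose 1.99-fold, with a log2 difference of 0.99 (SE 0.12, adjusted p = 0.000109). It stood at 9779, 8081, 7204, 5894 and 6800 in hypoxia-high control regions 6, 7, 3, 11 and 10. The 8 hypoxia-low control regions had 2907 to 4332. The hypoxia-high knockdown-labelled regions 10, 4, 2 and 12 had Slc16a3 levels of 3595, 5018, 3705 and 3829, and the hypoxia-low region 5 had 2409. Every hypoxia-high region was above every hypoxia-low region of its own label, and region 6 was the highest of all 27.

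Slc2a1, which encodes the glucose transporter Glut1 that the study followed, rose by 1.01 on the log2 scale (SE 0.17, adjusted p = 0.0103). Its levels were 2524, 1733, 1051, 946 and 1008 in hypoxia-high control regions 6, 7, 3, 11 and 10 and 507 to 692 in the hypoxia-low control regions. In the hypoxia-high knockdown-labelled regions 10, 4, 2 and 12 Slc2a1 stood at 650, 972, 644 and 645, and in the hypoxia-low region 5 at 497. Region 4 of the knockdown label was therefore above control region 11 and below control regions 3 and 10, and control regions 6 and 7 stood apart from the rest.

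Aldoa, the aldolase that splits fructose bisphosphate, had the smallest p of all targets, with a log2 difference of 0.69 (SE 0.0823, adjusted p = 8.44e-05). Its level was 18260, 16040, 13131, 10925 and 12109 in hypoxia-high control regions 6, 7, 3, 11 and 10 and 7461 to 8959 in the hypoxia-low control regions. In knockdown-labelled regions 10, 4, 2 and 12 Aldoa stood at 7675, 9588, 8688 and 8163, against 5672 in hypoxia-low region 5. The groups did not overlap within either label. Pgk1, the kinase of the first step that yields ATP, rose by 0.75 (SE 0.10, adjusted p = 0.000432), from 5123 to 6791 in hypoxia-low control regions to 9153 to 15862 in hypoxia-high ones. Ldha, which reduces pyruvate to lactate, rose by 0.59 (SE 0.0914, adjusted p = 0.00201), and its label-centred values overlapped between the ends.

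The other called members of the pathway covered its steps in order. Hexokinase Hk2 rose by 0.68, the isomerase Gpi1 by 0.46, the phosphofructokinases Pfkl and Pfkp by 0.70 and 0.56, Tpi1 by 0.50, Pgam1 by 0.46, Eno1 by 0.54 and pyruvate kinase Pkm by 0.37, each with an adjusted p between 0.00275 and 0.0141. Pdk1, the kinase that shuts pyruvate dehydrogenase, rose by 0.71 (adjusted p = 0.0105). The members that did not pass included Gapdh (0.36, adjusted p = 0.207), Hk1 (0.23), the second lactate carrier Slc16a1 (0.25), and the muscle, brain and regulatory isoforms Pfkm, Eno2, Pfkfb3 and Pfkfb4, all between -0.14 and 0.05. Mean glycolysis levels over the list were above 0 in 9 of 9 hypoxia-high regions (0.02 to 0.55), above 0 in 3 of the 9 regions in between (-0.25 to 0.12), and below 0 in all 9 hypoxia-low regions (-0.39 to -0.04), on the centred log2 scale.

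In the list for glycogen and the pentose phosphate branch, 2 of 13 measured members rose, Gys1, the glycogen synthase of non-hepatic tissue, by 0.65 (adjusted p = 0.0103), and the phosphoglucomutase Pgm1 by 0.58 (adjusted p = 0.0341). The other 11 members, including the dehydrogenases G6pdx and Pgd of the pentose branch, did not pass and ranged from -0.22 to 0.13, with a list median of 0.03.

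**Figure D3:**
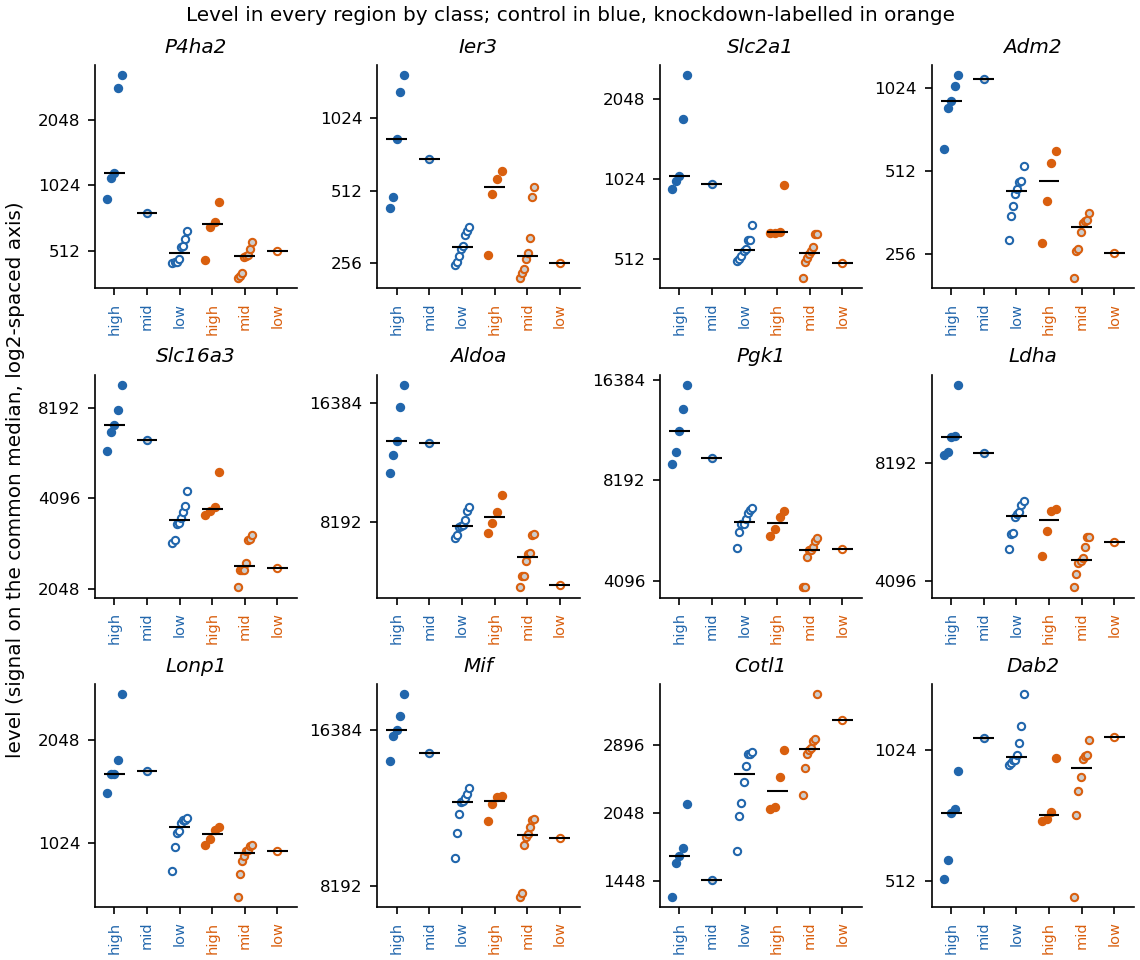
Level of 12 called genes in every region (signal on the common median, log2-spaced axis), with control regions in blue, knockdown-labelled regions in orange and a black line at each median; filled points are hypoxia-high, grey points in between and open points hypoxia-low. In the glycolysis genes Slc16a3, Aldoa and Pgk1 all hypoxia-high control regions stand above all hypoxia-low control regions, and all knockdown-labelled regions stand below the hypoxia-high control regions.

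Of the 30 genes of the hypoxia response list, none of which entered the score, 9 rose and 0 fell, with a median of 0.31. The largest increase of all called targets was that of P4ha2, a catalytic subunit of the collagen prolyl hydroxylase, at 1.29 on the log2 scale (SE 0.24, adjusted p = 0.0103), 2.44-fold. P4ha2 stood at 2888, 3294, 887, 1165 and 1109 in control regions 6, 7, 3, 11 and 10. Hypoxia-low control regions had 452 to 629, the hypoxia-high knockdown-labelled regions 10, 4, 2 and 12 had 696, 861, 466 and 661, and hypoxia-low region 5 had 510. Region 2 of the knockdown label was therefore below region 5 and control regions 6 and 7 stood far above every other region. The related catalytic subunit P4ha1 rose by 0.63 (adjusted p = 0.00275).

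The list also held mitochondrial proteins that rose. Fam162a, a hypoxia-induced mitochondrial protein, rose by 0.91 (adjusted p = 0.00543), the mitochondrial adenylate kinase Ak4 by 0.80 (adjusted p = 0.0027) and Higd1a, a small protein of the inner membrane, by 0.70 (adjusted p = 0.00201). Egln1, the main prolyl hydroxylase of the oxygen sensor, rose by 0.56 (adjusted p = 0.0182), Bhlhe40, a transcriptional repressor, by 0.57 (adjusted p = 0.00275), the lipid droplet protein Hilpda by 0.39 (adjusted p = 0.0319) and the histone demethylase Kdm3a by 0.35 (adjusted p = 0.0182). Among the 21 members that did not pass, Ero1a, an oxidase of the endoplasmic reticulum, had the largest increase of any target tested at 1.30 with an adjusted p of 0.094, and the carbonic anhydrase Car9 had 1.13 with an adjusted p of 0.211. Angptl4 (-0.25), Lox (-0.09), Loxl2 (-0.09) and Plod1 (0.01) did not pass either.

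The machinery of the pathway itself had a single call. In the list of 17 factors, hydroxylases and ubiquitin ligase parts, 1 gene rose, Egln1, and the median was -0.01. Hif1a, the alpha subunit, differed by 0.04 (SE 0.07), Arnt, its partner, by -0.03, Hif1an by -0.01 and Epas1 by -0.14, and Vhl, which recognizes the hydroxylated subunit, by 0.17 (adjusted p = 0.442).

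The hypoxia response element core was searched for as ACGTG and GCGTG on either strand in the 250 bases before the start site of RefSeq promoters (build GRCm38.p6). A CACGTG site holds the first form on both strands and was counted as 2 matches. The core was present in 5 of 5 score genes with an entry, in 19 of 19 such genes of the hypoxia response list, in 19 of 22 of the glycolysis list and in 30 of 38 of the genes called higher (78.9%). Among measured targets above background it was present in 61.7% of 8717 genes, and over all 27025 genes of the table in 41.5%. Genes with several start sites had several entries and counted as holding the core if any entry did. Vegfa held it in 1 of its 2 entries. Counted by entry, the shares were 83.3% for score genes, 79.3% for the hypoxia response list and 77.1% for the glycolysis list. By entry they were 64.4% for genes called higher, 55.9% for measured targets above background and 38.6% over the whole table. These shares are descriptions, and a match of 5 letters is not a bound site. Of the 30 hypoxia response genes only 19 had an entry. The score genes and the hypoxia response list were picked as genes of the hypoxia response, so their shares are no independent support. Binding of the hypoxia-inducible factors was not tested. The promoters of 2 score genes, 4 genes that rose and 2 genes that rose without a match are given next, 5′ to 3′ on the strand of the gene, with the core in capitals. They lie at chr7:138909507-138909756 (minus strand, Bnip3), chr8:45999851-46000100 (minus strand, Ankrd37), chr11:54100674-54100923 (plus strand, P4ha2), chr11:120948817-120949066 (plus strand, Slc16a3), chrX:106186850-106187099 (plus strand, Pgk1), chr7:46845554-46845803 (plus strand, Ldha), chr15:89322470-89322719 (plus strand, Adm2), chr10:75860278-75860527 (minus strand, Mif).
Bnip3: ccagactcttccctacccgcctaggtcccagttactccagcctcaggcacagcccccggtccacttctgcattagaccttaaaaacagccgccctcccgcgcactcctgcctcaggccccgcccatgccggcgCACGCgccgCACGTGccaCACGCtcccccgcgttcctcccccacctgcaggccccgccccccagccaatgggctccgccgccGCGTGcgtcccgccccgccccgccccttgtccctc
Ankrd37: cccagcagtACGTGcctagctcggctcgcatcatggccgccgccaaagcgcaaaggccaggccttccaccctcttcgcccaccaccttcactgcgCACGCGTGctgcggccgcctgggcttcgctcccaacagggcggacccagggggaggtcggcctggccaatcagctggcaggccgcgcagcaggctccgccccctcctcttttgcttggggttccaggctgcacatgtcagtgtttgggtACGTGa
P4ha2: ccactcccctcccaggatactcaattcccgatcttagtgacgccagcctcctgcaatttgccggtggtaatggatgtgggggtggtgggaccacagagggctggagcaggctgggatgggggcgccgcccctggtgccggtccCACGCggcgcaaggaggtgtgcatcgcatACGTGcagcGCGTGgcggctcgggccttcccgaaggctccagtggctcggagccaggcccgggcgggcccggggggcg
Slc16a3: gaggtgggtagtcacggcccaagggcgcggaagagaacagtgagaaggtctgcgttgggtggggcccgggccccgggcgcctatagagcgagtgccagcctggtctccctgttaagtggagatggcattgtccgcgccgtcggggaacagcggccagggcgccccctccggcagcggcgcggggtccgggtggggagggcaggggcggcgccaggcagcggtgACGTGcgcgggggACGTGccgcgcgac
Pgk1: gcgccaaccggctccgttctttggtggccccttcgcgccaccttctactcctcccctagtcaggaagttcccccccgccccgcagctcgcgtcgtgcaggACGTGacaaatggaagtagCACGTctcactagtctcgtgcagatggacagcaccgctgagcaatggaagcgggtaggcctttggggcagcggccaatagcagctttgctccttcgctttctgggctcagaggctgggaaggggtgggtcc
Ldha: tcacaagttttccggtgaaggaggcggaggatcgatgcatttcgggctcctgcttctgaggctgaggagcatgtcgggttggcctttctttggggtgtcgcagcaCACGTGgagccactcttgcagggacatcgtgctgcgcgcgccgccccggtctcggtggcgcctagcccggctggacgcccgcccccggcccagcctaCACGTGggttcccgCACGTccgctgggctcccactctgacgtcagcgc
Adm2: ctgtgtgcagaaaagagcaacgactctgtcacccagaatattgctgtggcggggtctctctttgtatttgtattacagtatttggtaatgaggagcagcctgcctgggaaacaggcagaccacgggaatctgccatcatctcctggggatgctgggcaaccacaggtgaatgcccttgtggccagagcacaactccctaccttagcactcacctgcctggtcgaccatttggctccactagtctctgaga
Mif: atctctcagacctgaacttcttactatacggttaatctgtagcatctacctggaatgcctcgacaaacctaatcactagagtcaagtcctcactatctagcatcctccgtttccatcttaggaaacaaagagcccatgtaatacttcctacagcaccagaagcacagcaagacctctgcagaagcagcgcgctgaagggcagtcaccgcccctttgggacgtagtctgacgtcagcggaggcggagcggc
Bnip3 and Ldha held 5 matches each, Ankrd37 4, P4ha2 3, and Slc16a3 and Pgk1 2 each. Ldha had a second entry, not printed, with 1 match. Adm2 and Mif, both called higher, held 0 in this window.

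Genes outside the hypoxia and glycolysis lists were also called. Ier3, an immediate early gene induced by stress and inflammatory signals, had the second largest increase of all called targets, 1.23 (SE 0.23, adjusted p = 0.0266). It stood at 1534, 1306, 836, 434 and 482 in control regions 6, 7, 3, 11 and 10 and at 253 to 362 in hypoxia-low control regions. Knockdown-labelled regions 10, 4, 2 and 12 had Ier3 levels of 493, 617, 569 and 277, against 257 in hypoxia-low region 5, so that the label-centred values did not overlap. In the immediate early list 1 of 16 genes rose and 14 of 16 differences were positive (10706 of 19609 over all targets). The list median was 0.24, with Fosl1 at 0.50 (adjusted p = 0.0945), Myc at 0.43 and Fos at 0.03.

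Adm2, which encodes the vasoactive peptide intermedin, rose by 1.00 (SE 0.15, adjusted p = 0.00384). Its level was 1136, 1038, 866, 920 and 618 in control regions 6, 7, 3, 11 and 10, and 288 to 536 in the hypoxia-low control regions. Knockdown-labelled regions 10, 4, 2 and 12 had 399, 607, 548 and 282, and region 5 had 260. Adm2 was 1 of 28 genes called in the list of ATF4 targets and amino acid response genes, which cells turn on when amino acids run short or protein folding fails. All 28 differences were positive (10706 of 19609 over all targets), with a median of 0.33, and 20 had an unadjusted p under 0.05 (5.97% higher over all targets). Trib3 (0.94, adjusted p = 0.108), Vldlr (0.99), Ppp1r15a (0.83), Gdf15 (0.64), Slc7a11 (0.61), Ddit3 (0.54) and Asns (0.40) did not pass the adjusted threshold. The list mean ran from 0.01 to 0.77 in hypoxia-high regions and from -0.67 to 0.01 in hypoxia-low regions, with control region 6 highest and control region 13 lowest.

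Pvr, the ligand of the lymphocyte receptors TIGIT and CD226, rose by 0.61 (adjusted p = 0.00201), and Mif, an abundant cytokine with a mean log2 level of 13.53, by 0.46 (adjusted p = 0.00281). Mif was 1 of 36 chemokines and cytokines called. Lonp1, the protease of the mitochondrial matrix, rose by 0.57 (adjusted p = 0.0112), with 2786 in control region 6 and 1437 to 1798 in the other 4 hypoxia-high control regions, against 850 to 1213 in the hypoxia-low control regions. Tgif1, a homeobox repressor, rose by 0.47, the histone demethylase Kdm6b by 0.44, the small Maf protein Maff by 0.40 and Soat1, which esterifies cholesterol, by 0.37. The other calls were Rin1, Zbtb7b, Ankzf1, Rlf, Map2k1 and Gprc5a, between 0.32 and 0.40, and Hid1, Tmprss11g and Csrp3, which were below the background limit.

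The 2 genes that fell were Cotl1, an actin-binding protein common in leukocytes, by 0.48 on the log2 scale (SE 0.10, adjusted p = 0.0266), and Dab2, an endocytic adaptor of macrophages and other phagocytic cells, by 0.51 (SE 0.11, adjusted p = 0.0387). Cotl1 stood at 1335, 1647, 1592, 2144 and 1712 in control regions 6, 7, 3, 11 and 10 and at 1692 to 2799 in the hypoxia-low control regions. Dab2 stood at 518, 734, 918, 750 and 575 in those hypoxia-high regions and at 947 to 1374 in the hypoxia-low control regions. In hypoxia-high knockdown-labelled regions Cotl1 had 2097 to 2835 and Dab2 704 to 983, against 3306 and 1100 in hypoxia-low region 5. The label-centred values of both genes overlapped between the ends. Neither call was stable. The count of lower genes was 0 without control region 1, 6, 7 or 10 or knockdown-labelled region 5, 1 without control region 2, 3, 13 or 14 or knockdown-labelled region 2 or 4, 2 without knockdown-labelled region 10, 3 without control region 4, 5 or 12, 5 without control region 9, 10 without control region 11 and 12 without knockdown-labelled region 12.

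Several gene groups had no called member. In the mitosis and G2/M list 28 of 28 differences were negative (8903 of 19609 over all targets), with a median of -0.16. They ran from Ccnb2 at -0.38 (adjusted p = 0.23) to Bub1 at -0.01. Of these, 8 had an unadjusted p under 0.05 (3.5% lower over all targets). Mki67, the marker of cycling cells, differed by -0.24 (SE 0.13, adjusted p = 0.576). In the list of the TCA cycle and pyruvate entry all 20 differences were negative, with a median of -0.07. In the respiratory chain and ATP synthase list 30 of 35 were, with a median of -0.09. All members of these lists were above background, and over all targets above background the median was -0.02. With 5 control regions against 5, 9 of 20 TCA cycle genes and 23 of 35 respiratory chain genes were negative (8156 of 19609 over all targets). With 4 knockdown-labelled regions against 4, 7 of 20 and 7 of 35 were (8264 of 19609 over all targets). For mitosis the counts were 20 and 19 of 28, with medians of -0.08 and -0.02.

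The interferon response list also had no call, although 31 of 31 differences were positive (10706 of 19609 over all targets) with a median of 0.27. Here the labels went apart in value. Within the knockdown label 31 of 31 were positive with a median of 0.71, and 13 had an unadjusted p under 0.05 (1.97% of all targets). Within the control label 11 of 31 were positive with a median of -0.07 and 0 had an unadjusted p under 0.05 (5.96% of all targets). The list mean ran from -1.27 in control region 11 to 1.20 in knockdown-labelled region 4, both hypoxia-high. The fit for a different response by label used the hypoxia-high and hypoxia-low classes instead. That fit rested on 1 hypoxia-low knockdown-labelled region and cannot decide whether the labels differed here. Cd274, which encodes PD-L1, differed by 0.28 (SE 0.23, adjusted p = 0.723), with 397 to 936 in hypoxia-high and 372 to 1041 in hypoxia-low control regions. Cmtm6 differed by -0.06 (SE 0.08, adjusted p = 0.86).

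**Figure D4:**
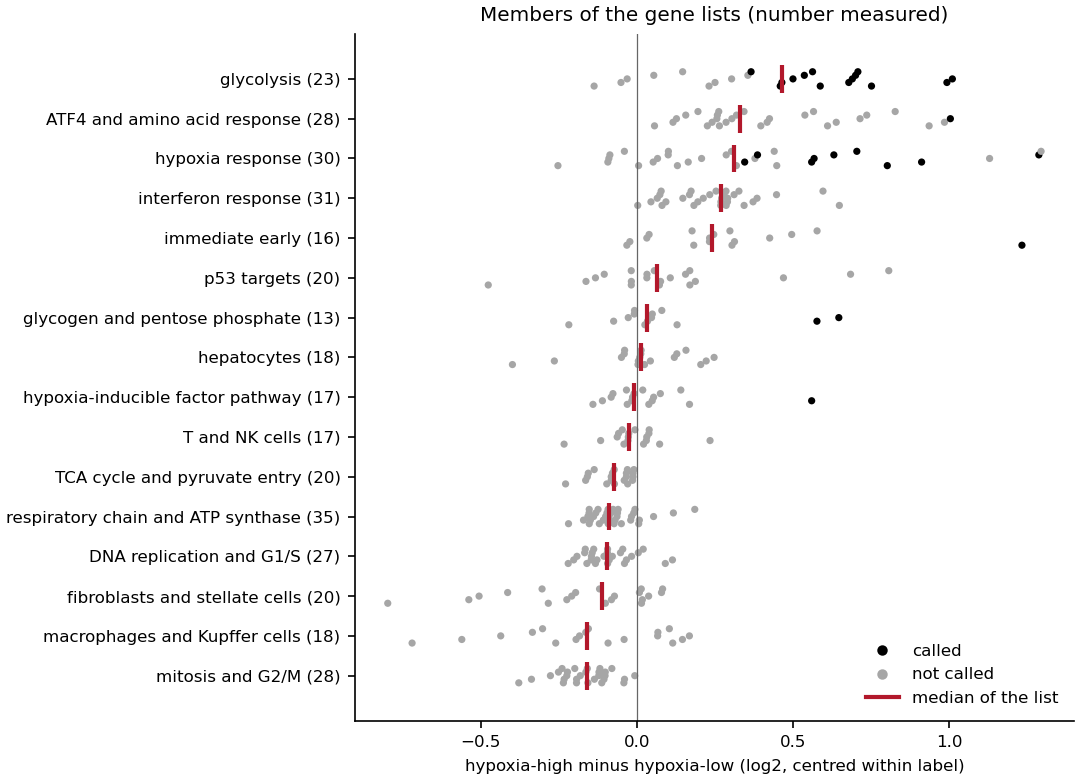
Each point is a measured member of a gene list, placed by its hypoxia-high minus hypoxia-low difference (log2, centred within label); black points were called and red lines mark the list medians. The glycolysis list has 14 called members and a median of 0.46, all 28 members of the ATF4 list lie above 0, the hypoxia response list has a median of 0.31, and the mitosis and macrophage lists have medians of -0.16 with no called member.

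Segments outside the desmin stain can hold cells other than the carcinoma. Of 18 keratin and epithelial genes only 2 were above background, so the tumour identity of the segments could not be checked with them. No marker of macrophages was called. Of 18 markers 12 differences were negative (8903 of 19609 over all targets), and the list median was -0.16. The list mean was above 0 in 4 of 9 hypoxia-high and in 6 of 9 hypoxia-low regions. The summed level overlapped, from 12630 to 22571 in hypoxia-high and from 13299 to 24266 in hypoxia-low regions. The largest of these differences were those of Mrc1 (-0.72, adjusted p = 0.185), Mertk (-0.56) and Lyz2 (-0.44), and 13 of the 18 markers were above background, among them Adgre1 and Csf1r, with the Kupffer markers Clec4f, Vsig4, Timd4 and Marco below it. Of 20 fibroblast and stellate markers 13 differences were negative (8903 of 19609 over all targets), and the list median was -0.11. The list mean was above 0 in 4 of 9 hypoxia-high and in 7 of 9 hypoxia-low regions. The summed level ran from 16100 to 40136 in hypoxia-high and from 29471 to 47079 in hypoxia-low regions. Among these markers Col1a1 stood at -0.80 (adjusted p = 0.454) and Pdgfrb at -0.51. None of these markers was at 0 in any region, since every reading was above 0, and 12 of the 20 were above background. Hepatocyte markers had a median of 0.01 and summed levels of 4747 to 15697 and 6415 to 12954. With the mean of the macrophage list as a covariate 16 of the 43 genes were still called, and with the fibroblast list 5 were, Slc16a3 (0.92), Higd1a (0.70), Pgk1 (0.69), Bhlhe40 (0.64) and Aldoa (0.63), while all 43 differences were positive under both, with medians of 0.52 and 0.50. In segments of mixed cells, fewer cells of a type and less RNA per cell cannot be told apart.

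Depth and background were compared at both ends. The total of a region, its summed signal divided by its smallest step, ran from 9572722 to 25209342 in hypoxia-high regions and from 9977866 to 20762997 in hypoxia-low regions. The label-centred log2 total differed by 0.06 (exact permutation test, p = 0.756, 9 against 9) and the background level by 0.05 (exact permutation test, p = 0.0938). With the background level as a covariate the counts were 43 higher and 0 lower, with 31 of the 43 shared, and with the log2 total 55 and 2.

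Because the labels hold unequal numbers of regions at each end, the comparison was repeated inside each label, with the 5 highest against the 5 lowest control regions and the 4 highest against the 4 lowest knockdown-labelled regions, a division chosen after the data had been seen. The 43 genes had a median difference of 0.66 in control regions and 0.35 in knockdown-labelled regions, with 43 and 33 of them at an unadjusted p under 0.05 (5.96% and 1.97% of all targets). The regions overlap with those that gave the calls, so these counts are no independent support. A lookup across separate regions used calls from control regions alone. With 5 hypoxia-high against 8 hypoxia-low control regions, 55 targets were higher and 3 lower, 33 of the 55 being among the 43. In the knockdown-labelled regions 54 of these 55 were higher, against 57.9% of all targets, with a median of 0.28, and 28 had an unadjusted p under 0.05 (50.9%, beside 1.97% of all targets). No target passed the adjusted threshold within the knockdown label (0 called, 386 higher at an unadjusted p of 0.05). A fit with a term for class by label rested on 1 hypoxia-low knockdown-labelled region. It cannot decide whether the size of the response differed between labels.

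**Figure D5:**
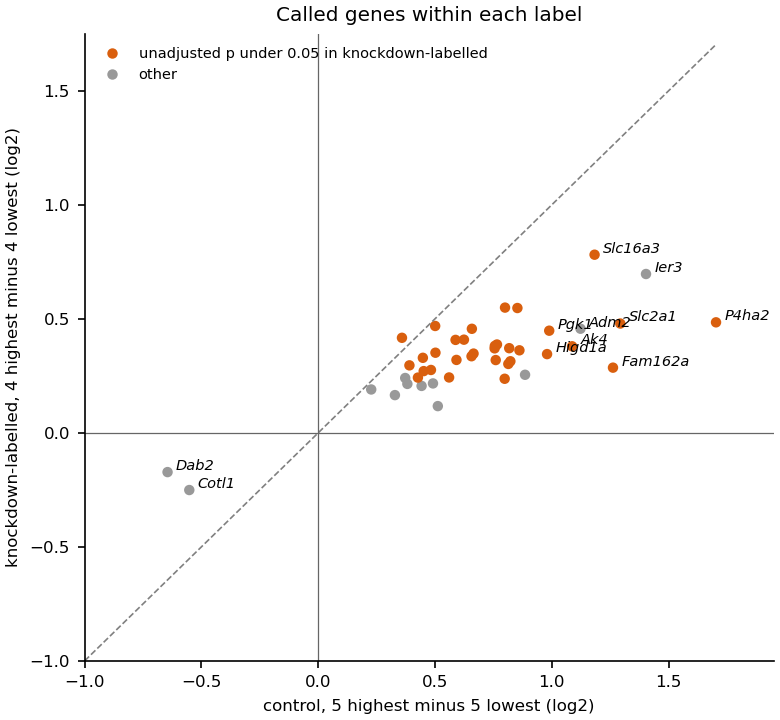
The difference of each of the 45 called genes within control regions (5 highest minus 5 lowest, log2) against that within knockdown-labelled regions (4 highest minus 4 lowest, log2), with the dashed line at equality. All 43 genes called higher lie above 0 on both axes, with medians of 0.66 and 0.35, and Cotl1 and Dab2 lie below 0 on both.

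Slc16a3 had a difference of 1.18 in control and 0.78 in knockdown-labelled regions, and Bhlhe40 had 0.62 and 0.41. P4ha2 had 1.70 and 0.48, and Slc2a1 1.29 and 0.48. On the uncentred scale the median Slc16a3 level was 4093 over the control regions (2907 to 9779) and 2973 over the knockdown-labelled regions (2067 to 5018). The median Slc2a1 level was 649.6 (507 to 2524) against 572 (436 to 972). The ranges of the labels overlapped for both genes, and the difference between labels was not tested. The authors had scaled the control and knockdown blocks separately, and the common median takes out any factor shared by all targets of a region.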

How the data were processed

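RNA probes of the GeoMx Mouse Whole Transcriptome Atlas were counted by sequencing in 27 segments. The authors deposited 19615 targets as normalized signal from the GeoMx DSP Analysis Suite (version not given in the sources used here), with the control and knockdown blocks each scaled to its own upper quartile, 1.46-fold higher in control. At least 99.98% of values were whole multiples of a step (tolerance 0.01), but the smallest readings were 10 to 126 steps, so counts were not recovered and no count model was run.

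Each region was set to a common median, log2(value + 1) was taken, and targets were centred within label. Limma 3.58.1 in R 4.3.3 (trend, robust, two-sided) compared the 9 highest with the 9 lowest scores over 19609 targets, with Benjamini-Hochberg adjustment at 0.05; single values were tested by exact permutation. The script was tested on simulated data. No target was left out for a low level.

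The members and the 41 gene lists were chosen with earlier results of these data known. Named were the 6 score genes, the 15 largest called increases and decreases above background, up to 4 list members with the smallest p and 2 with the highest mean, and Cmtm6, Slc2a1, Cd274 and Mki67; other genes named, such as Ero1a and Car9, were chosen after their values were seen. Alternatives changed the scaling, class size, score, background, model and regions. Regions come from fewer mice than regions and the labels do not pair them.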

Additional observations from a re-analysis of the deposited data

Results flagged for a closer look

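The score, the score genes, the called genes, Cmtm6, Cd274, Mki67, the log2 total and the background level were each looked at for a region far from the other 8 of its class, in 114 sets of 9 label-centred values, where the gap to the nearest region divided by the range of the class passed Dixon's 95% critical value for 9 samples. The sets share regions and the classes were cut from the ranked score, so 1 in 20 cannot be taken as the chance rate. The rule marked 6 sets (5.26%). In 4 of them control region 6 was far above the other hypoxia-high regions, for Vegfa (ratio 0.529, with 1.54 against 0.70 in the next region on the centred log2 scale), Lonp1 (0.645, with 1.04 against 0.41), Tgif1 (0.50, with 0.72 against 0.36) and Hid1 (0.558, with 0.89 against 0.36). In the hypoxia-low class, knockdown-labelled region 5, the only region of its label there, was highest for Higd1a (0.493045, with -0.04 against -0.26), and control region 13 was lowest for Cmtm6 (0.568, with -0.29 against -0.04).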

How the results depend on the processing

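Beside the 43 higher and 2 lower targets, the counts without centring within label were 92 and 19, with 6 against 6 regions 43 and 1, with 13 against 13 68 and 4, and with the score as a continuous term 148 and 4. A score without Bnip3 gave 36 and 0, without Ndrg1 40 and 1, and with genes divided by their SD 43 and 4. Where regions were ranked again after another scaling, the counts were 3898 and 682 on the deposited scale, 3748 and 684 with the upper quartile, 2837 and 647 with the total, 11406 and 375 with housekeeping genes, 44 and 9 with TMM and 59 and 10 with quantiles. The median over all targets was shifted by 0.11 on the deposited and upper-quartile scales, 0.10 with the total and 0.23 with housekeeping genes, and all 43 genes were called on these, with medians of 0.51 to 0.62 before that shift is taken off. With the classes kept, the upper quartile gave 50 and 5 and housekeeping genes 28 and 0. Subtraction of the background gave 23 higher, array weights 305 and 323, and the exact rank-sum test 0 lower. Covariates gave 68 higher for the hepatocyte list, 16 and 0 for the macrophage list, 5 and 0 for the fibroblast list and 0 lower for the background level. Knockdown-labelled regions alone gave 0 and 0 in classes (146 higher and 126 lower at an unadjusted p of 0.05) and 0 and 0 with the continuous score (439 and 180), and control regions alone with the continuous score gave 142 and 9. Without control regions 6 and 7 the counts were 18 and 0, and with classes set within each label 4 were lower. Leaving out 1 region at a time gave 28 to 72 higher and 0 to 12 lower, and 25 of the 45 called genes were kept each time. The cause of these differences was not tested. The continuous score by label, the classes by label, the fit without control regions 6 and 7 and the scalings with kept classes were chosen after seeing the data. Of the 45 called genes 0 changed sign in any of the 39 settings or the 18 fits without a region, while the uncalled Eng (-0.05) and Esam (-0.10) became 0.41 and 0.21 with housekeeping scaling. The interaction of class and label had 1 call, Prxl2c (adjusted p = 0.0161), with upper-quartile scaling, where the regions were ranked again. That call cannot be set beside the main fit, which rested on 1 hypoxia-low knockdown-labelled region and cannot decide whether the labels differed. No paired analysis was possible because the labels do not tie regions of the groups to each other. Signal over background limits the low genes, since only 10794 of 19609 targets were above the background level.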

Other observations

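Genes beside the lists named so far had values that did not pass the adjusted threshold. The transferrin receptor Tfrc, which brings iron into the cell, differed by 0.75 (SE 0.17, adjusted p = 0.0903), and the p53 target Cdkn1a, an inhibitor of the cell cycle, by 0.68 (SE 0.15, adjusted p = 0.0554). In the iron list 0 of 15 members and in the p53 list 0 of 20 members were called, with medians of -0.01 and 0.06. Spp1, a secreted phosphoprotein of tumour cells and macrophages, differed by 0.53 (adjusted p = 0.0897). Among genes of hypoxic macrophages, Hmox1 had 0.56 and Fabp5 -0.40, and 0 of 9 were called.

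Among the regions in between, control region 8 had the highest mean over the 43 genes called higher (0.20 on the centred log2 scale), above the 0.14 of hypoxia-high control region 10, although its score was -0.01. Its levels of Adm2 (1106), Slc16a3 (6414) and Slc2a1 (987) were inside or above the range of the hypoxia-high control regions. The other 8 regions in between were below 0, the lowest being knockdown-labelled region 8 at -0.27.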
